A study of Mus musculus with 3 samples.

Results

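The annexin genes Anxa1, Anxa2, Anxa3, Anxa4, Anxa5, Anxa6, Anxa7, Anxa8, Anxa10 and Anxa11 are described here in mouse embryonic stem (ES) cells with and without the DNA demethylase Tet1. A spot was taken as belonging to one of these 10 genes by the gene name in the scanner files, or by the current symbol found through its accession or a synonym. This gave 25 spots of 16 probes, on arrays that name 27670 genes in all. The family was chosen by the log2 differences between knockout and wild type already seen in these same arrays. Those differences are therefore given as a description and support nothing.

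The study hybridised RNA of 3 samples, 1 sample per Agilent 1-colour array. Samples KO 4 and KO 22 carry the genotype label Tet1 KO and the third sample carries Tet1 WT. Every sample was labelled as the V6.5 ES cell line of mixed 129 and C57BL6 background. All were grown in medium with leukaemia inhibitory factor (LIF) on irradiated feeder cells, and RNA came from cells that had been preplated, a step that lets feeder cells settle out. The labels do not say whether KO 4 and KO 22 are separate clones, lines or cultures, or how the knockout allele was made. The design text speaks of mice. Wild type is 1 array with no replicate, and p-values below measure only the spread between the knockout arrays, which may be technical.

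Annexins are soluble proteins that bind acidic membrane phospholipids when calcium rises, through a conserved core of repeats. They act at membranes in vesicle traffic, membrane repair, fibrinolysis at the cell surface and the damping of inflammation, and several bind small S100 proteins through their variable N-terminal ends. Fibroblasts, the usual feeder cells, are known to express several of them strongly, and so do many epithelia.

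The probe of Tet1, the targeted gene, gave an intensity of 214 on KO 4, 195 on KO 22 and 721 on wild type. Where the knockout allele lost sequence, and whether this probe lies there, was not stated in the labels. Of 12 pluripotency genes 11 had a probe, and those 11 were well above background on every array. The 10 defining fibroblast markers (among them Col1a1, Dcn, Thy1 and Pdgfrb) were also well above background on every array, wild type included. No annexin spot was saturated or had an outlier flag, and 0 of the 25 lay within 2 rows and columns of a spot that was bright on 1 array alone (at least 4-fold above both others). Values below are processed intensities, which are not scaled between arrays. Differences are on a log2 scale after subtracting the 75th percentile of each array (717.7 on KO 4, 644.9 on KO 22 and 623.7 on wild type).

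On that scale 5 annexins stood higher on both knockout arrays than on wild type, and 5 stood at or below it. Anxa3 and Anxa1 had the largest differences, at 4.16-fold and 2.98-fold for the mean of the knockout arrays. Anxa2, Anxa5 and Anxa4 followed at 1.45-fold, 1.39-fold and 1.31-fold. Anxa6, Anxa11 and Anxa7 differed from wild type by less than 0.10 on the log2 scale, and Anxa8 and Anxa10 stood lower. Both differences from wild type share the 1 wild type array. Over all 17714 genes tested, 38.0% stood above wild type on both knockout arrays and 45.5% below it on both.

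**Figure D1:**
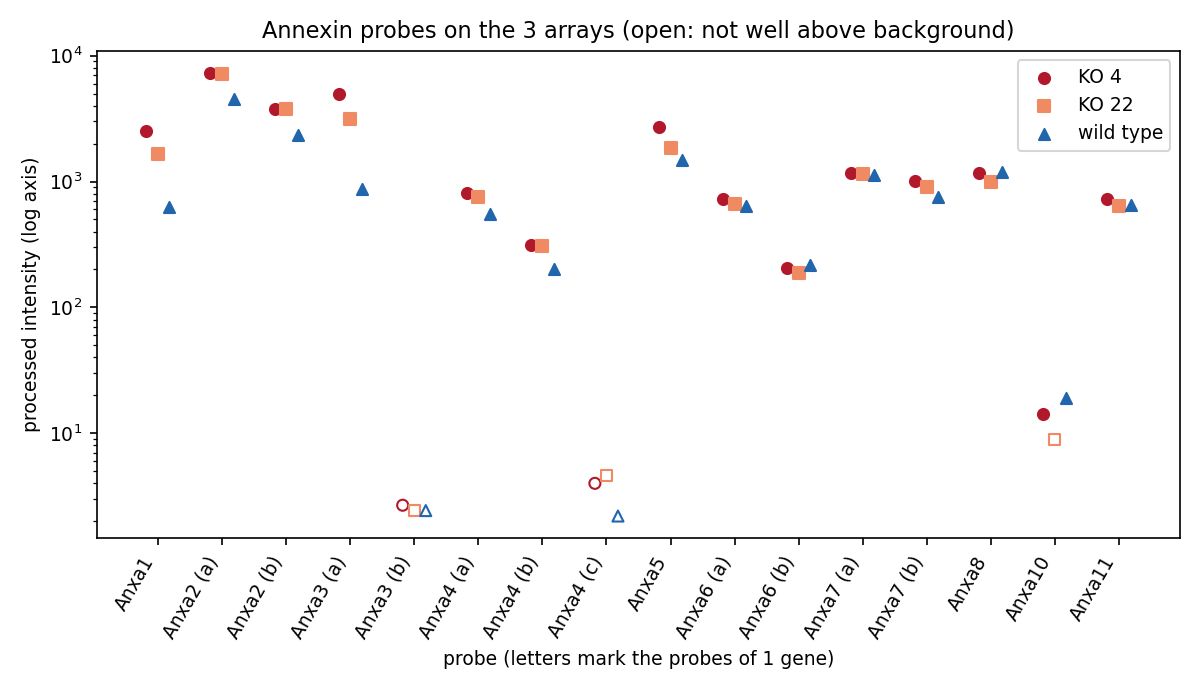
Processed intensity (log axis, arbitrary scanner units, not scaled between arrays) of each of the 16 annexin probes on KO 4, KO 22 and wild type, with open symbols for spots not well above background. Probes of Anxa1, Anxa2 and Anxa3 (a) show wild type clearly lowest, while the probes of Anxa7 (a), Anxa8 and Anxa11 have the 3 arrays close together.

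The median difference from wild type over the 10 annexins was 0.17 on KO 4 and 0.13 on KO 22, beside -0.04 and -0.02 over all genes. These medians fall between the higher and the lower members and describe neither. By size, 2 members (Anxa1 and Anxa3) were at least 2-fold above wild type on both knockout arrays, as were 1.45% of all genes, and 0 were at least 2-fold below it, against 1.56%. Limma called 0 of the 10 at an adjusted p below 0.05, where it called 0.356% of all genes in either direction and 0.0339% higher. At an unadjusted p below 0.05 it had 4 members higher and 1 lower (28.2% of all genes in either direction). With an intensity trend in eBayes it called 4 higher and 0 lower (19.0% of all genes in either direction, 8.31% higher). With normexp background correction it called 5 higher and 0 lower (18.2% in either direction). It called 2 higher and 0 lower in the authors' matrix (5.53% in either direction). Where each of the 3 arrays had to exceed background it also called 2 higher and 0 lower (5.52% in either direction). It called 0 of the 10 with quantile normalization, scaling to the median, the mean over a gene's probes, or no filter. Over all genes these settings called 55, 92, 63 and 0, so a count of 0 among so few members tells little. Since the members were chosen with this contrast known, nothing is read from these counts. Tet1, the targeted gene, was not called by the fit as reported either, at a difference of -1.94. It was called with an intensity trend. A gene that was not called may therefore still differ.

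Tet1 acts on methylated CG dinucleotides, so the start regions of the genes are shown for members with a large, a moderate and a small difference. RefSeq (build GRCm38.p6) gave a window from 250 bases before to 50 after the start for 8 of the 10 members, 10 windows in all. No window was available for Anxa3 or Anxa6, so Anxa3, the member with the largest difference, is not among those shown. In each sequence, on the gene's strand, capitals mark every CG. The windows are chr19:20390622-20390921 (minus strand) for Anxa1, chr9:69453433-69453732 (plus strand) for Anxa2, chr3:36475838-36476137 (minus strand) for Anxa5 and chr14:25841905-25842204 (plus strand) for Anxa11.
Anxa1: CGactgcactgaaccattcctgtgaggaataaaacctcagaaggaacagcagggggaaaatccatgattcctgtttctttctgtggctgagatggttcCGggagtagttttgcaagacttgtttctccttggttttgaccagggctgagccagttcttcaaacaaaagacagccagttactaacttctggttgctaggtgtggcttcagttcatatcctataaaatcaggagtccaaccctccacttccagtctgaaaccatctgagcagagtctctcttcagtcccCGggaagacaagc
Anxa2: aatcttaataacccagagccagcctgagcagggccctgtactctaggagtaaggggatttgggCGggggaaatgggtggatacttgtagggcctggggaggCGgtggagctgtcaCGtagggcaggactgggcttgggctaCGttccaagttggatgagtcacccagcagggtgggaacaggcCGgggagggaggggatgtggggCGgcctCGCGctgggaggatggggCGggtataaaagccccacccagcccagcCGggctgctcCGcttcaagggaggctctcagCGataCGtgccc
Anxa5: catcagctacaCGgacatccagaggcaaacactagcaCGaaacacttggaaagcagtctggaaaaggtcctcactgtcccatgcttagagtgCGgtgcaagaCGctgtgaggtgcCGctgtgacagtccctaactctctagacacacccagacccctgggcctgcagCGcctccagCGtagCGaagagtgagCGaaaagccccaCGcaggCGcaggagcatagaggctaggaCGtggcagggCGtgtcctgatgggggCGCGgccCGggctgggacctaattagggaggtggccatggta
Anxa11: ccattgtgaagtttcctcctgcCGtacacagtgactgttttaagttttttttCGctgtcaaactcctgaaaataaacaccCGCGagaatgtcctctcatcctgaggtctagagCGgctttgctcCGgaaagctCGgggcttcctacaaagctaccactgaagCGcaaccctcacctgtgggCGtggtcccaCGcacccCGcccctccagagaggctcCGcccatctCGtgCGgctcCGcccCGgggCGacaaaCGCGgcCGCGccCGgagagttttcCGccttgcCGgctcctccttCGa

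Anxa1 (lipocortin) is a mediator of glucocorticoid action that restrains inflammation. Its single probe, on chromosome 19 from 20074249 to 20075762 of build mm7, gave 2516 on KO 4, 1657 on KO 22 and 628 on wild type. Both knockout arrays lie above the 1 wild type array, as they do for 38.0% of all genes, with KO 4 the higher. The probe's coordinates span 1514 bases, far more than the 60 of most probes in the family, so its ends lie apart in the genome. Exon positions on mm7 were not analysed here. The difference was 1.57 ± 0.24 (limma standard error, n = 2 against 1), with 1.80 for KO 4 and 1.35 for KO 22.

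Anxa2 pairs with S100a10 in a complex that tethers membranes to actin and displays plasminogen and its activator at the cell surface. Its brighter probe, on chromosome 9 from 69521491 to 69521550 (mm7), gave 7291 on KO 4, 7110 on KO 22 and 4542 on wild type. The second probe, whose coordinates (69514817 to 69515591) again lie apart and span 775 bases, gave 3776, 3775 and 2354. Both probes put the knockout arrays together and wild type below them. The brighter one differed by 0.54 ± 0.11 (limma standard error, n = 2 against 1) and the second by 0.56.

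Anxa3 is an annexin of neutrophils and epithelia, with reported roles in phospholipase inhibition and cell migration. Its bright probe, on chromosome 5 from 96059115 to 96059174 (mm7), gave 4929 on KO 4, 3163 on KO 22 and 871 on wild type. The order of the arrays is that of Anxa1. The difference was 2.06 ± 0.26 (limma standard error, n = 2 against 1), made up of 2.30 for KO 4 and 1.81 for KO 22. The other Anxa3 probe (96013316 to 96013375) gave 2.68, 2.42 and 2.43, was well above background on 0 of the 3 arrays. It was tied to Anxa3 by the name in the file and not by an accession in the reference table.

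Anxa4, an annexin of secretory epithelia, had 3 probes. The brightest (chromosome 6, 86812115 to 86812175, mm7) gave 809 on KO 4, 755 on KO 22 and 547 on wild type. The next (86812466 to 86812526) gave 313, 309 and 202. Both order the arrays alike, with differences from wild type of 0.39 and 0.50 for the knockout mean. The third (86822824 to 86822883), matched to Anxa4 by gene name only, was above background on 0 of the 3 arrays, at 4.00, 4.64 and 2.20.

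Anxa5 binds phosphatidylserine, the property used to stain dying cells, and shields membranes from coagulation. Its probe (chromosome 3, 36259980 to 36260039, mm7) gave 2719 on KO 4, 1831 on KO 22 and 1475 on wild type. KO 4 stands apart here, and KO 22 lies nearer to wild type than to KO 4. The difference was 0.47 ± 0.22 (limma standard error, n = 2 against 1), but 0.68 on KO 4 and 0.26 on KO 22.

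Anxa6, Anxa7 and Anxa11 showed little difference on their brightest probes. Anxa6, whose core is doubled and which acts in endosome traffic and cholesterol handling, gave 729 on KO 4, 662 on KO 22 and 644 on wild type (chromosome 11, 54941843 to 54941902, mm7), a difference of -0.01. Its dimmer probe (54947962 to 54948021), matched to Anxa6 by gene name only, gave 206, 188 and 216, a difference of -0.26. After scaling, neither probe of Anxa6 put the knockout arrays above wild type, and the size differed between them.

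Anxa7 (synexin), a promoter of vesicle fusion, gave 1170 on KO 4, 1147 on KO 22 and 1127 on wild type on its brightest probe (chromosome 14, 18112575 to 18112634, mm7). The other probe (18115490 to 18115549), matched to Anxa7 by gene name only, gave 1004, 898 and 755. These probes disagree in sign, with -0.09 for the first and 0.21 for the second, and the mean over them was 0.06. No direction can be given for Anxa7.

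Anxa11, which binds S100a6 and carries RNA granules on lysosomes, gave 729 on KO 4, 640 on KO 22 and 656 on wild type with its single probe (chromosome 14, 23558469 to 23558528, mm7). The scaled values were 0.02, -0.01 and 0.07, closer together than those of any other member except Anxa6.

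Anxa8, an annexin of stratified epithelia and late endosomes, is the one member printed 10 times on each array, which gives a measured technical error. The spots (chromosome 14, 31533094 to 31533153, mm7) ran from 1101 to 1216 on KO 4, with a median of 1175. On KO 22 they ran from 950 to 1031 (median 998), and on wild type from 1122 to 1225 (median 1211). The SD over the 10 spots was 0.0440, 0.0384 and 0.0417 on the log2 scale, or 2.64% to 3.02% of the mean intensity. The scanner software assigns each spot of the family at an intensity of 100 or more an error of 10% of its intensity or slightly more, wider than this measured spread.

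After scaling, the Anxa8 means were 0.70 ± 0.0440 on KO 4, 0.62 ± 0.0384 on KO 22 and 0.94 ± 0.0417 on wild type (SD, n = 10 spots). At 10 of 10 positions both knockout arrays lay below wild type, and at 10 of 10 KO 4 lay above KO 22. Before scaling, the spots of KO 4 (1101 to 1216) and wild type (1122 to 1225) overlapped. Most of the gap between KO 4 and wild type thus comes from the scaling. All positions share that step, so the spread over spots does not measure its error. The knockout mean differed from wild type by -0.28 ± 0.10 (limma standard error, n = 2 against 1). Spots of 1 array repeat 1 labelled RNA, so this precision is that of the reading and says nothing of the spread between cultures. Over the 116 probes printed 10 times and above background throughout, the median SD over spots was 0.0537 to 0.0667 on the 3 arrays.

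**Figure D2:**
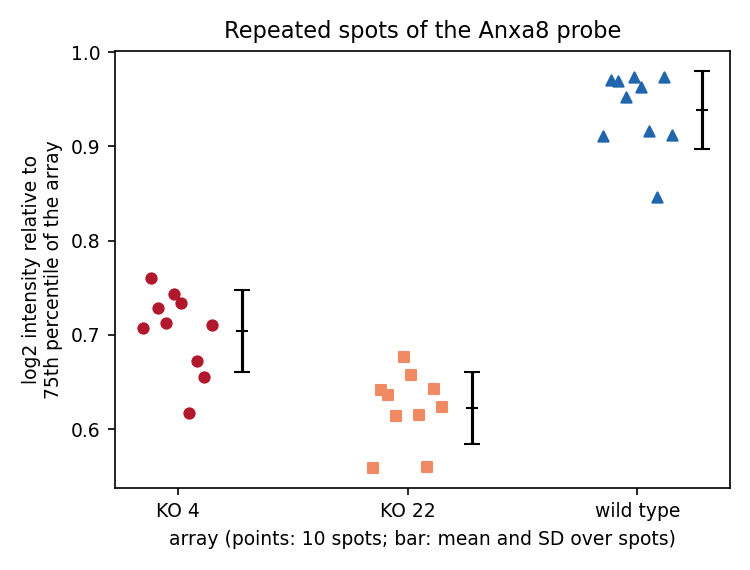
Log2 intensity of the 10 spots of the Anxa8 probe on each array, relative to that array's 75th percentile, with bars for the mean and SD over spots. After this scaling the wild type spots lie above those of KO 4 and KO 22 throughout, by a gap wider than the SD of 0.0384 to 0.0440. The SD does not include the error of the scaling.

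Anxa10, an annexin of gastric epithelium that has lost much of its calcium binding, was near the floor. Its probe (chromosome 8, 60466931 to 60466990, mm7) gave 14.3 on KO 4, 8.93 on KO 22 and 19.1 on wild type, and it was not well above background on KO 22. The difference of -0.88 ± 0.28 (limma standard error, n = 2 against 1) shrank to -0.51 in the series matrix values and to -0.27 with normexp background correction, so its size is uncertain.

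**Figure D3:**
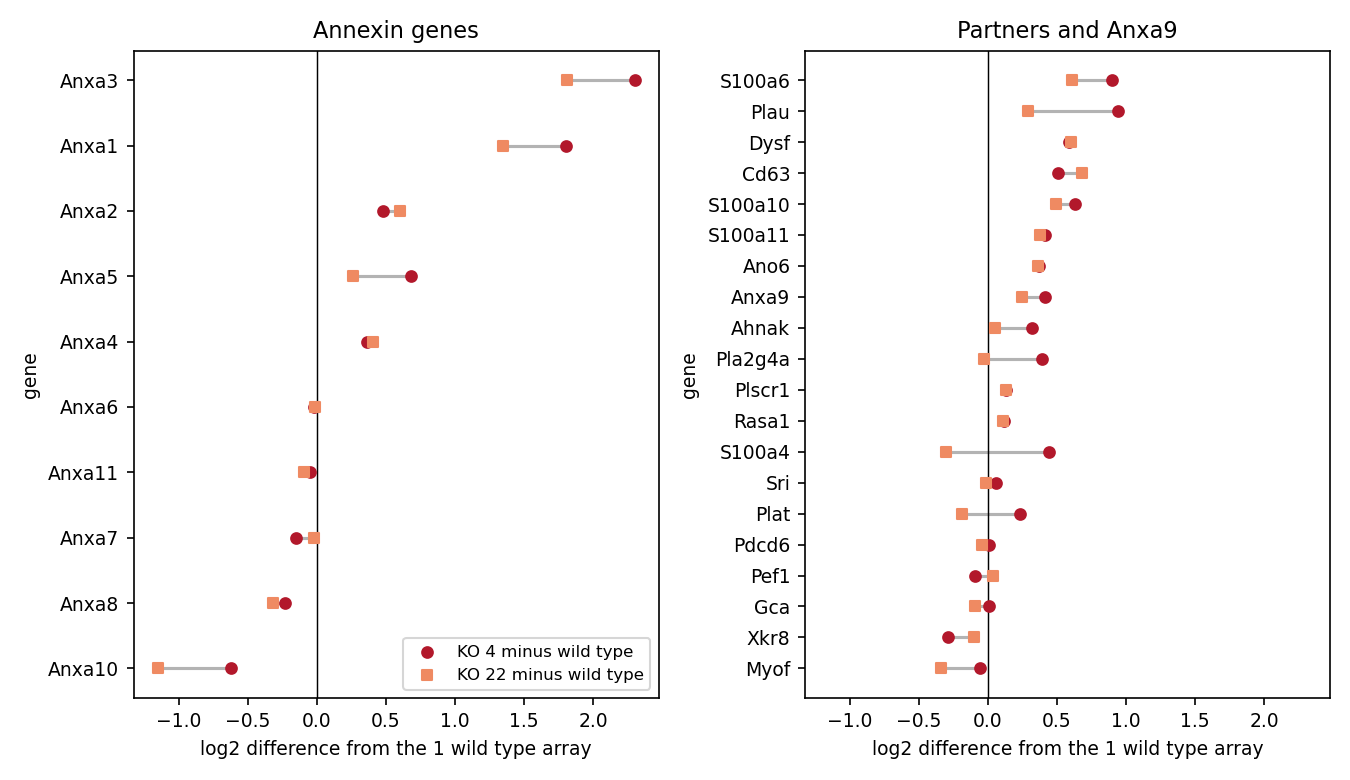
Log2 difference of KO 4 (circles) and KO 22 (squares) from the 1 wild type array, with a grey line joining both. Shown are the 10 annexins and the 20 measured genes of the partner list, Anxa9 included. Anxa3 and Anxa1 lie between 1.35 and 2.30, outside the range of every partner gene.

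KO 4 and KO 22 share a genotype label, and feeder cells express annexins, so these arrays were set against each other, without wild type. Anxa10 (0.53), Anxa3 (0.49), Anxa1 (0.45) and Anxa5 (0.42) stood higher on KO 4, and the other 6 annexins differed by -0.13 to 0.08. With 1 array each there is no test. None of the 10 reached 2-fold, as 0.773% of all genes did upward and 0.644% downward. Differences at least as high as those of Anxa3, Anxa1 and Anxa5 occurred in 2.83%, 3.25% and 3.65% of all genes. These shares include dim genes that were above background on 1 array alone. Genes at least 2-fold apart fell from 251 to 43 where all 3 arrays had to exceed background. The shares among bright genes were not counted. The Anxa10 value turned to -0.02 with normexp correction and rests on 1 dim spot per array.

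The fibroblast markers stood higher on KO 4 too. Of 31 markers 30 were measured, and 29 of these 30 were higher on KO 4 than on KO 22, against 47.0% of all genes. Their median difference between KO 4 and KO 22 was 0.59, and that of the 10 defining markers was 0.79, with a range of 0.15 to 1.42. The largest were those of the collagen gene Col6a3 (106, 35.1 and 51.7 on KO 4, KO 22 and wild type), the proteoglycan gene Lum (31.0, 10.4 and 16.7) and the collagen gene Col3a1 (369, 143 and 147), at 1.45, 1.42 and 1.21. The median over the 10 annexins was 0.06. Which cells gave the marker RNA was not measured. The number of such cells and the RNA per cell cannot be told apart in such bulk samples.

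**Figure D4:**
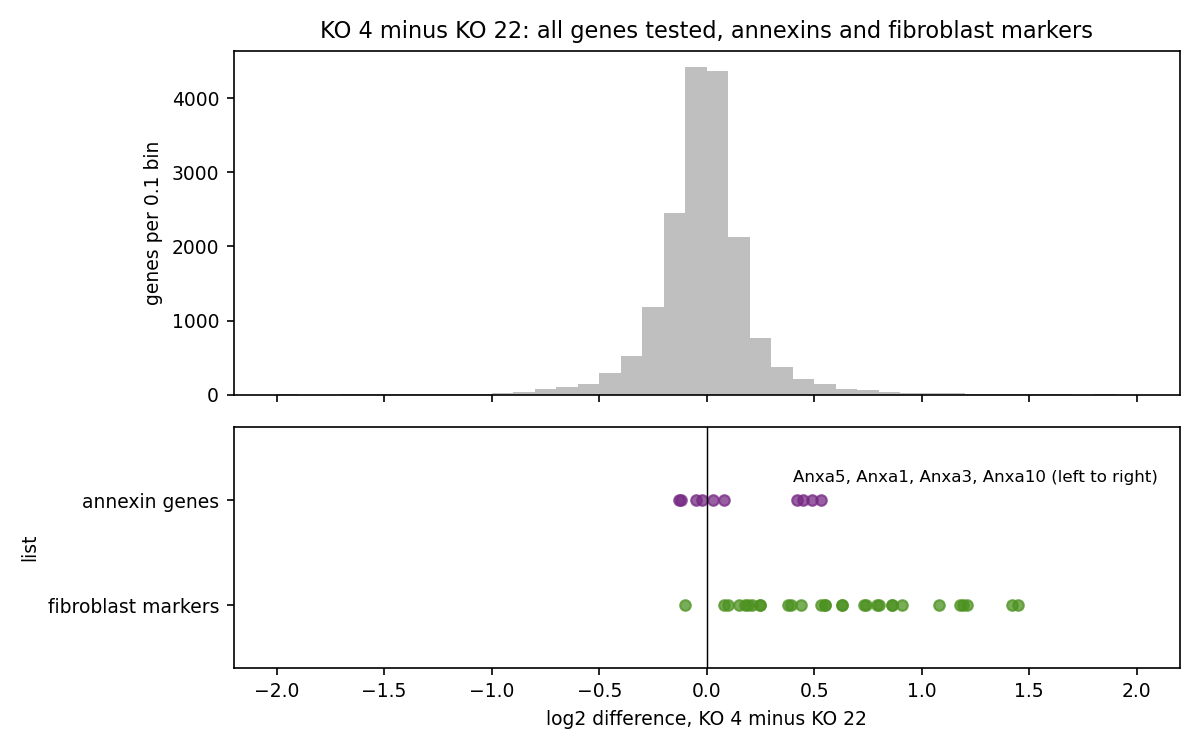
Top, the number of genes per bin of the log2 difference between KO 4 and KO 22 over all genes tested (the axis ends at 2 either way); bottom, the same difference for each annexin and each fibroblast marker. Anxa5, Anxa1, Anxa3 and Anxa10 sit at 0.42 to 0.53, among the fibroblast markers and apart from the other 6 annexins.

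Against wild type the fibroblast markers differ between the knockout arrays. Their median was 0.71 on KO 4 and -0.08 on KO 22, and for the 10 defining markers 0.85 and -0.06. The summed level of the list, in units of the 75th percentile, was 79.7 on KO 4, 63.2 on KO 22 and 55.1 on wild type, and that of the 10 defining markers 8.59, 6.10 and 6.54. On KO 22 the whole list thus summed to more than on wild type and its defining markers to less. Bright genes weigh most in such sums. On KO 22, Tagln, the brightest of the list there, differed from wild type by 1.19. Thy1, the brightest defining marker, differed by -0.30. The sums therefore do not describe the typical marker. The part of fibroblast RNA in the annexin differences on either knockout array was not tested.

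Markers of other cell types were set beside the annexins in the same way. These lists and the fibroblast list were chosen with earlier results of these data known, so their counts are a description. Of 20 trophoblast markers 18 were measured and limma called 0, beside 0.356% of all genes. Before adjustment, 11 had p below 0.05 and stood higher, and 1 lower, beside 28.2% of all genes in either direction. Their median difference from wild type was 0.85 on KO 4 and 0.84 on KO 22. Their summed level was 252, 225 and 138 on KO 4, KO 22 and wild type. Of 17 primitive endoderm markers 14 were measured and limma called 2, both lower. Before adjustment, 1 stood higher and 10 lower. Their medians were -0.86 and -0.75, with sums of 6.83, 6.03 and 10.8. With an intensity trend limma called 11 trophoblast markers higher and 0 lower, beside 19.0% of all genes in either direction. It called 1 primitive endoderm marker higher and 8 lower. The 11 pluripotency genes had medians of -0.13 and -0.01, with sums of 784, 907 and 853. Trophoblast and visceral endoderm express annexins too, and the part of these cell states in the annexin differences was not tested.

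Genes that work with annexins, and annexins outside the 10, were taken as a list of 25 by what they are known to do. The list was chosen with earlier results of these data known. Its counts and p-values are therefore given as a description. Of these 24 had a probe and 20 were measured, and limma called 0 of them at an adjusted p below 0.05. At an unadjusted p below 0.05 limma had 6 of the 20 higher and 0 lower, beside 2344 of all 17714 genes higher and 2647 lower (28.2% in either direction). With an intensity trend limma called 6 of the 20 higher, where 8.31% of all genes were. The median of the 20 was 0.34 on KO 4 and 0.08 on KO 22. The Anxa1 receptor genes Fpr1 and Fpr2, plasminogen (Plg) and Anxa13 were well above background on no array.

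Among the S100 partners, S100a6, which binds Anxa11, gave 17611 on KO 4, 12869 on KO 22 and 8182 on wild type. Its difference of 0.75 ± 0.17 did not pass (limma adjusted p = 0.132, with 0.000313 to 0.229 over the alternatives). The next pair was picked after its values were seen, as the partners of Anxa2 and Anxa1. S100a10 gave 11642, 9480 and 6550, a difference of 0.56 ± 0.11 (limma adjusted p = 0.123, with 0.00189 to 0.192 over the alternatives). S100a11 gave 4988, 4371 and 3256, a difference of 0.39 ± 0.09 (limma adjusted p = 0.132, with 0.0156 to 0.183 over the alternatives). The fourth, S100a4, a protein abundant in fibroblasts, differed in sign between the knockout arrays, at 0.44 and -0.30.

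Among genes of membrane repair, the dysferlin gene Dysf gave 284 on KO 4, 257 on KO 22 and 164 on wild type, at 0.60 ± 0.09 (limma adjusted p = 0.103, with 0.00669 to 0.170 over the alternatives). Of the plasminogen system, Plau, which encodes urokinase, gave 21.9, 12.5 and 9.88 and was not well above background on wild type (0.62 ± 0.34, limma adjusted p = 0.325, with 0.290 to 0.774 over the alternatives). The tetraspanin gene Cd63 gave 44623, 45299 and 27295, at 0.59 ± 0.12 (limma adjusted p = 0.125, with 0.000425 to 0.201 over the alternatives). Ano6, a lipid scramblase gene whose product exposes phosphatidylserine, gave 2423, 2163 and 1634, at 0.36 ± 0.09 (limma adjusted p = 0.141, with 0.0268 to 0.185 over the alternatives). S100a6, S100a10, S100a11, Dysf, Cd63 and Ano6 were thus not called as reported, and were called with an intensity trend.

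The penta-EF-hand genes, several of whose products bind Anxa7 and Anxa11, stayed near 0, the largest being Gca at -0.04 ± 0.10 (limma adjusted p = 0.824, with 0.749 to 0.990 over the alternatives). Anxa9, an annexin outside the 10, gave 82.3, 66.0 and 53.8, at 0.33 ± 0.12 (limma adjusted p = 0.208, with 0.149 to 0.498 over the alternatives).

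Of the start regions printed above, the Anxa1 window holds 3 CG dinucleotides, and 76.7% of the 32851 windows in the table hold as many or more. That of Anxa2 holds 13, of Anxa5 16 and of Anxa11 25, a number that 18.4% of windows reach, and the median window holds 7. The Anxa8 window holds 5 and the Anxa10 window 1, though both genes stood lower on the knockout arrays. In the printed windows more CG went with a smaller difference, and this order does not hold once Anxa8 and Anxa10 are included. Anxa4 and Anxa7 each have a pair of windows, with 20 and 3 for Anxa4 and 19 and 4 for Anxa7. Methylation was not measured in these arrays.

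Searches of both strands for TATAAA, the AP-1 motif TGANTCA and the CArG box bound by serum response factor gave few matches in the 10 windows, none overlapping another. TATAAA was found in Anxa1 and Anxa10 (32 bases before the start in each) and in Anxa2 (17 bases before it), and 13.6% of all windows hold it. The AP-1 motif was found 95 bases before the start of Anxa2 and at 2 places in Anxa10, with a share of 7.81% over all windows. A CArG box was found 25 bases after the start of Anxa5, with a share of 1.63%. A match describes letters in a window, not a bound site.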

How the data were processed

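Per spot, the deposited files give the intensity computed by Agilent Feature Extraction 10.1.1.1, background-subtracted and detrended within each array, per the file headers, with no scaling between arrays. The authors' series matrix holds log2 values whose 3 columns share nearly 1 distribution. The submitters' processing notes name limma. How that table was background-corrected was not stated there.

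Intensities were scaled to the 75th percentile of each array over the 43379 non-control spots and log2-transformed. Spots with outlier flags were left out, spots of a probe were averaged and the brightest probe stood for a gene. Genes entered the fit with a probe well above background on 1 or more arrays (17714 genes). Of 41174 probes 79.5% matched the RefSeq table. Probe positions are those of the files (mm7).

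Limma 3.58.1 in R 4.3.3 (lmFit, eBayes, Benjamini-Hochberg) compared 2 knockout arrays with 1 wild type array. There was 1 residual degree of freedom, 3.03 after moderation. The prior SD of 0.088 sets a shared minimum for standard errors. All arrays lie on 1 slide and 1 scan run. The fit was also run on simulated data, with a spread equal in both groups and unrelated to intensity. That run cannot show how far the calls in the real arrays hold. Every member was named. Of the partner list, the gene with the largest difference in each role was named, and of the fibroblast list the 3 largest between KO 4 and KO 22. The members and lists were chosen with earlier results of these data known. Alternatives changed the scaling, background correction, filter, probe rule, variance model and source of values, or left out a knockout array.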

Additional observations from a re-analysis of the deposited data

How the results depend on the processing

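Limma called 63 genes as reported. It called 3215 with normexp (without 8 spots dimmer than their background), 979 in the series matrix values, 906 with a filter requiring all 3 arrays, 3372 with an intensity trend and 0 without a filter, where 5968 had an unadjusted p below 0.05. Partner genes called went from 0 to 5 with normexp, 1 in the series matrix values and 6 with an intensity trend. Genes at least 2-fold from wild type on both knockout arrays numbered 533 as reported, and 109 with normexp, 289 in the matrix values, 906 without a filter and 283 with all 3 arrays required. Genes 2-fold apart between KO 4 and KO 22 numbered 251, and 9, 96, 973 and 43 in the same order.

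The annexin median on KO 4 moved from 0.17 to 0.36, and on KO 22 from 0.13 to 0.26, with all 3 arrays required, which leaves out Anxa10. Averaging the probes of a gene gave 0.21 and 0.18. Between KO 4 and KO 22 the median of 0.06 moved to 0.00 with normexp and to 0.03 with all 3 arrays required. Over the alternatives that did not leave out an array, the knockout mean stood above wild type by 1.96 to 2.07 for Anxa3, 1.49 to 1.58 for Anxa1, 0.53 to 0.60 for Anxa2, 0.46 to 0.49 for Anxa5 and 0.37 to 0.44 for Anxa4. For Anxa6 it ran from -0.14 to 0.00 and for Anxa7 from -0.10 to 0.06. The causes of these moves were not tested, apart from those that an alternative makes by its construction (fewer or more genes tested). No paired analysis was possible because the groups share no replicate number. With 3 arrays, the number of arrays limits the precision, and leaving out a knockout array leaves the difference of the other from wild type. On KO 4 and KO 22 this was 0.48 and 0.60 for Anxa2, 0.36 and 0.41 for Anxa4, -0.02 and -0.01 for Anxa6, -0.15 and -0.02 for Anxa7, -0.23 and -0.32 for Anxa8, -0.62 and -1.15 for Anxa10, and -0.05 and -0.09 for Anxa11. The text gives those of Anxa1, Anxa3 and Anxa5.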
